A study of Danio rerio
Oryzias latipes and Oryzias latipes and Danio rerio with 7 samples.

Results

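The nuclear genes of the mitochondrial respiratory chain are described here in transplanted zebrafish cells, in their medaka hosts and in unoperated embryos of both species. They were taken by symbol, as every gene record whose name starts with nduf followed by a, b, c, s or v, with sdha to sdhd, uqcr, cox4 to cox8 or atp5, or is cyc1. The rule found 107 of the 32264 zebrafish records and 81 of the 20459 medaka records, 188 in all. In zebrafish 42 belong by symbol to complex I, 5 to complex II, 9 to complex III, 21 to complex IV and 16 to complex V. In medaka the numbers are 35, 4, 9, 14 and 10. The other 14 zebrafish and 9 medaka records are assembly factors of complexes I and II and relatives of ATP synthase genes.

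The study made zebraka chimeras by moving zebrafish blastomeres into medaka blastulae of the same age, and sequenced poly(A)-selected RNA of whole embryos. The groups are chimeras of AB zebrafish cells in Cab medaka (n = 3 libraries), AB zebrafish embryos (n = 2) and Cab medaka embryos (n = 2). All were kept at 28 °C, chimeras and medaka in ERM medium and zebrafish in E3 medium, so medium and transplantation differ together in the zebrafish comparison, and their parts cannot be told apart. The stage is given only as embryo, and the number of embryos in a library is not given in the sources used here. No genetic change is named for any group. Each library was read against both genomes, so zebrafish and medaka transcripts of a chimera appear in separate tables.

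The respiratory chain sits in the inner mitochondrial membrane. Complexes I and II pass electrons from NADH and succinate to ubiquinone, complex III passes them to cytochrome c and complex IV to oxygen. Complexes I, III and IV pump protons, and complex V, the ATP synthase, lets them flow back to make ATP. Most subunits come from nuclear genes, and a few core subunits of all complexes but complex II come from mitochondrial DNA. Several complex IV subunits have paired genes, which in mammals are used by different tissues, for example heart and skeletal muscle against other organs.

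Depth differed strongly between the genomes. On the zebrafish genome the chimeras held 764000 to 941708 fragments, as implied by the deposited confidence limits, and zebrafish embryos 21866655 and 28574227. Per unit of FPKM (fragments scaled to transcript length and to the mapped fragments of the library) zebrafish embryos were 31.2-fold to 41.9-fold deeper. On the medaka genome the chimeras held 27167734 to 30983952 fragments and medaka embryos 18330408 and 21491640. Both zebrafish embryo libraries also differed from each other: 97 of 100 tested members were higher in the first, by a median of 0.31 on the log2 scale, while the median over all genes was 0.02. On the medaka genome chimeras 2 and 3 had a Pearson correlation of 0.996 on the log2 scale. Chimera 1 had 0.979 with chimera 2 and 0.982 with chimera 3. On the zebrafish genome these correlations were 0.984, 0.985 and 0.989 in the same order. Chimeras 2 and 3 have adjoining sample numbers, apart from those of chimera 1 and all unoperated embryos. Whether this marks a batch was not tested. The labels do not say whether the libraries of a group stem from different clutches, so p-values measure only the spread between these libraries, which may be technical. In bulk RNA, fewer cells of a type and less RNA per cell cannot be told apart.

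In the zebrafish genome summed subunit FPKM were somewhat lower in chimeras than in zebrafish embryos in every complex. FPKM are relative to each library, and the median gene also stood lower in chimeras, at -0.22 on the log2 scale. Levels below are FPKM rescaled by the median ratio between libraries of a genome. Summed over the 93 subunit records of complexes I to V, they came to 10265, 10709 and 10318 FPKM in chimeras, against 15663 and 12604 FPKM in zebrafish embryos. The groups did not overlap, and the zebrafish embryos were farther from each other than the second was from the chimeras.

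The sum was lowest relative to zebrafish embryos in complex II. The summed ratio of chimeras over zebrafish embryos was 0.765 for complex I, 0.621 for complex II, 0.738 for complex III, 0.701 for complex IV and 0.755 for complex V. The ratio of the median subunit was 0.782, 0.695, 0.697, 0.703 and 0.836 for complexes I to V in that order. On the medaka genome the same ratio against medaka embryos was 1.098 for complex I, 1.03 for complex II, 1.01 for complex III, 0.958 for complex IV and 1.03 for complex V. Summed over 72 medaka subunit records the levels were 11110, 11288 and 11144 FPKM in chimeras, against 10941 and 10789 FPKM in medaka embryos.

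**Figure D1:**
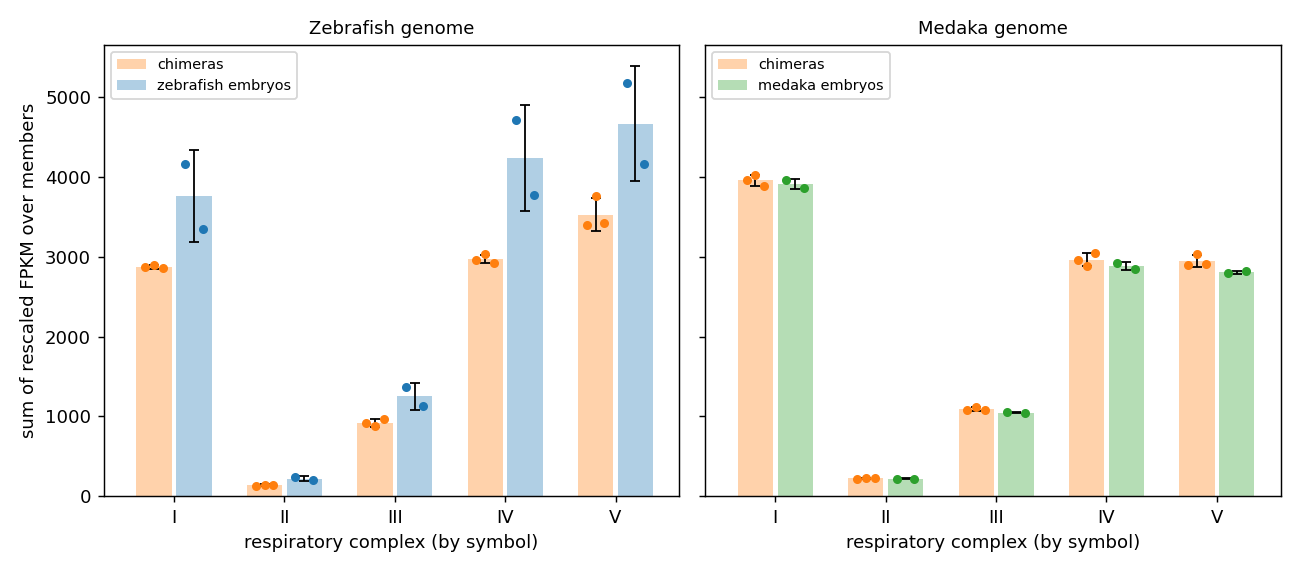
Summed rescaled FPKM of the members of each complex (vertical axis) by complex (horizontal axis), on the zebrafish genome (left) and the medaka genome (right). Bars are means, points are libraries (3 chimeras left, 2 unoperated embryos right) and error bars are SD. On the zebrafish genome chimeras lie below zebrafish embryos, as in complex IV with 2971 ± 53.5 against 4237 ± 663, and on the medaka genome the groups lie close together. The genomes were normalized apart, so heights compare only within a panel.

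Gene by gene, 100 zebrafish members had a mean of at least 1 FPKM in either group and little cross-mapping, and were tested with limma on log2(FPKM + 1) together with 17029 genes. Of these 100, 38 fell (called: Benjamini-Hochberg adjusted p under 0.05), 1 rose and 61 were not called, where 32.5% of all tested genes fell and 10.8% rose. With this filter the share of members that fell is thus near that of all genes. The median member differed by -0.40 on the log2 scale and the median gene by -0.22. In 59 members all chimeras lay below both zebrafish embryos, where 43.2% of all genes did. In 2 members all chimeras lay above, where 22.3% of all genes did. With 3 against 2 libraries a single value cannot reach an exact permutation p below 0.1.

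These values rested on the controls. Without the first zebrafish library the median member stood at -0.25, against -0.23 over all genes. Without the second it stood at -0.57, against -0.22 over all genes. Without chimera 1, 2 or 3, 17, 28 and 20 of 100 members fell, where 31.35%, 33.07% and 31.12% of all genes did. With quantile normalization, which moved the median of all genes to 0.31, the median member stood at -0.15, or 0.46 below all genes, and 20 members fell and 5 rose. Of all genes 3401 then fell and 5777 rose, against 5532 that fell and 1841 that rose with the median ratio. With a minimum mean of 5 FPKM and the median ratio, 43 of 94 members fell, where 30.8% of all genes did. The medians were then -0.455 over members and -0.099 over all genes.

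**Figure D2:**
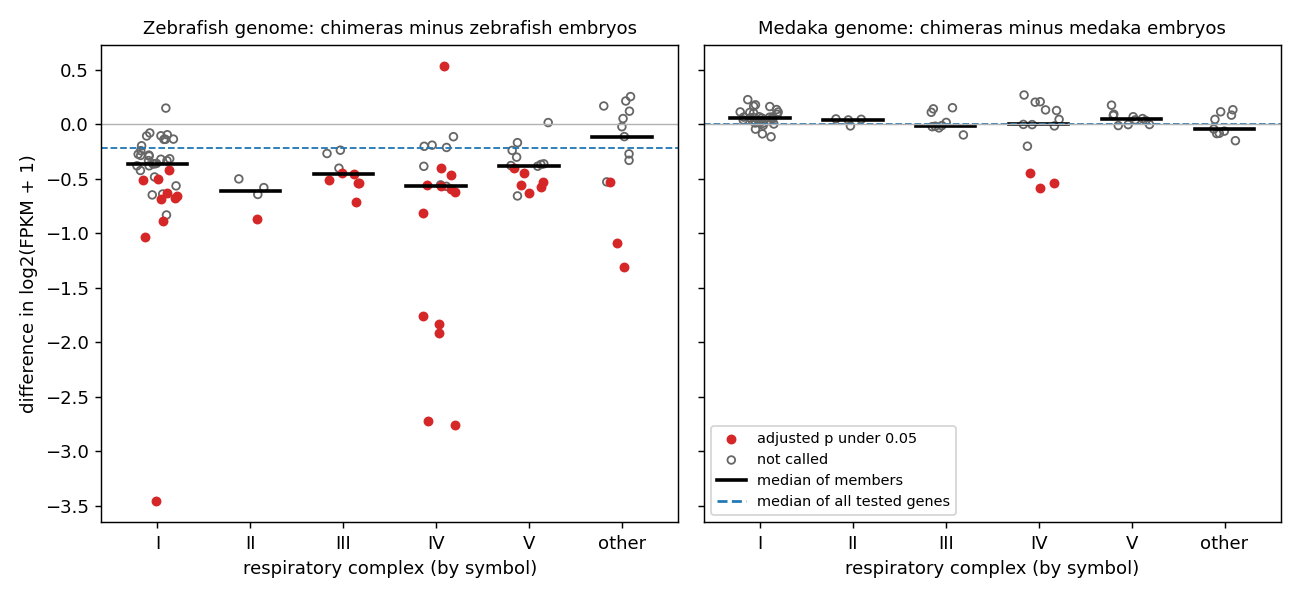
Difference in log2(FPKM + 1) of each tested member (vertical axis) by complex (horizontal axis, where other means assembly factors and ATP synthase relatives), for chimeras minus zebrafish embryos (left) and chimeras minus medaka embryos (right). Red points passed the test, open points did not, black lines are medians of members and dashed lines medians of all tested genes. The lowest points on the left are ndufa4 in complex I at -3.45 and a group of complex IV genes below -1.7, and on the right 3 complex IV genes are red.

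Complex I, which oxidises NADH, had 10 of 39 tested members that fell and none that rose, with a median of -0.36. Among all tested genes 32.5% fell. Without zebrafish library 1 the complex I median was -0.20, against -0.23 over all genes. The largest fall was that of ndufa4 (ENSDARG00000056108, danRer10 chromosome 12, 9842650 to 9846483). Its family is named for complex I, but mammalian NDUFA4 is now counted with complex IV. Other gene names call this record ndufa4b and give the name NDUFA4 to its paralog ndufa4l. The ndufa4 record had 4.02, 3.35 and 1.00 FPKM in chimeras, against 43.4 and 32.5 FPKM in zebrafish embryos. Every chimera lay far below both embryos, at 13.6-fold lower on average (log2 difference -3.45 ± 0.45 SE, limma adjusted p = 0.0033). About 17.0 fragments lay behind the 3 chimera values, where the embryo level would have given 280. The call was lost without zebrafish library 1 (adjusted p = 0.085) or 2 (0.065), and the range over all alternatives was 6.0e-04 to 0.085.

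Its paralog ndufa4l, the most abundant complex I member of zebrafish embryos, was not called. It had 244, 218 and 290 FPKM in chimeras, against 365 and 289 FPKM in zebrafish embryos, and the groups overlapped narrowly. ndufa4 therefore made up 1.16% ± 0.71 of the summed FPKM of its 4 family records in chimeras and 10.4% ± 0.39 in zebrafish embryos (SD, n = 3 and 2). The other 2 family records, ndufa4l2a and NDUFA4L2 (1 of many), were listed at 0 in all chimeras and below 1 FPKM in zebrafish embryos.

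Next came ndufv3, an accessory subunit of the NADH-binding module, with 29.4, 27.5 and 20.6 FPKM in chimeras against 57.3 and 49.8 FPKM in zebrafish embryos. The accessory subunit gene ndufa5 had 71.4, 63.7 and 48.1 FPKM in chimeras against 125 and 101 FPKM in zebrafish embryos. For both genes the groups were well apart, with log2 differences of -1.04 ± 0.18 SE and -0.88 ± 0.20 SE (limma adjusted p = 0.0094 and 0.023). Among the core subunit genes, ndufv1, which binds NADH, stood at -0.11, and ndufs1 and ndufs7 stood at -0.20 and -0.14, and none of the 3 was called. The only complex I member above 0 was ndufab1a, an acyl carrier protein gene, at 0.15 and not called. One further record, ndufs8b, was at or near 0 in every library while ndufs8a was expressed.

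In complex II, which oxidises succinate in the citric acid cycle, all 4 tested members lay lower in chimeras and 1 passed the test. Among all tested genes 32.5% were called lower. sdhc (ENSDARG00000038608, danRer10 chromosome 2, 44339654 to 44346842), a membrane anchor, had 42.9, 47.5 and 47.8 FPKM in chimeras, against 94.9 and 76.1 FPKM in zebrafish embryos. The chimeras lay close together and clear of both embryos (log2 difference -0.87 ± 0.13 SE, limma adjusted p = 0.0049), and the call held in all 16 alternatives.

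The catalytic flavoprotein gene sdha had 33.1, 46.9 and 33.0 FPKM in chimeras, against 60.2 and 46.7 FPKM in zebrafish embryos. The iron-sulfur gene sdhb had 28.9, 20.7 and 36.7 FPKM in chimeras, against 47.4 and 41.6 FPKM in zebrafish embryos. The second anchor, sdhdb, had 20.5, 30.9 and 23.1 FPKM in chimeras, against 42.1 and 32.7 FPKM in zebrafish embryos. The groups overlapped only for sdha, and none of the 3 was called (log2 differences -0.50, -0.64 and -0.58, limma adjusted p = 0.12, 0.10 and 0.092). Its paralog sdhda was listed at 0 in chimeras and below 1 FPKM in zebrafish embryos.

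Complex III, the cytochrome bc1 complex, had 6 of 9 members that fell, where 32.5% of all tested genes did. The largest difference was that of uqcrfs1, the Rieske iron-sulfur protein gene, with 25.4, 25.3 and 21.5 FPKM in chimeras against 43.9 and 36.5 FPKM in zebrafish embryos. The groups did not overlap (log2 difference -0.71 ± 0.14 SE, limma adjusted p = 0.012). The small subunit gene uqcrq, the most abundant of the complex, had 151, 146 and 173 FPKM in chimeras against 255 and 203 FPKM in zebrafish embryos, a difference of -0.54 ± 0.14 SE (limma adjusted p = 0.031).

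The core protein gene uqcrc1 stood at -0.54 ± 0.15 SE (limma adjusted p = 0.044). Both core 2 genes, uqcrc2a at -0.46 and uqcrc2b at -0.45, also fell, and so did UQCR10 at -0.51. The cytochrome c1 gene cyc1 at -0.27, the hinge protein gene uqcrh at -0.40 and uqcrb at -0.24 were not called. The 9 differences lay between -0.71 and -0.24. Without chimera 1, 2 or 3, 1, 1 and 3 of the 9 fell, where 31.35%, 33.07% and 31.12% of all genes did. Without zebrafish library 1 or 2 the median was -0.34 and -0.59, against -0.23 and -0.22 over all genes. Most of the calls did not hold in those fits.

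Complex IV, cytochrome c oxidase, had 12 of 20 tested members that fell and 1 that rose, with a median of -0.56. Among all tested genes 32.5% fell and 10.8% rose. Without zebrafish library 1 the complex IV median was -0.405, against -0.23 over all genes. The largest differences were in paired isoform genes. cox8b (ENSDARG00000097209, danRer10 chromosome 25, 10402836 to 10406237), known in rodents as the heart and muscle form of subunit 8, was listed at 0 in all 3 chimeras, against 7.37 and 4.46 FPKM in zebrafish embryos. At the embryo level 14.3 fragments would have fallen on it in the chimeras together. The test called it (log2 difference -2.76 ± 0.21 SE, limma adjusted p = 4.9e-04), in all 16 alternatives. It passed the filter only through the embryos, and with 0 in every chimera the size of its difference depends on the pseudocount. Over the alternatives, which also changed other settings, the difference ran from -5.87 to -1.11.

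cox4i1l (ENSDARG00000012388, danRer10 chromosome 24, 28152438 to 28166713), related to the subunit 4 gene cox4i1, was also listed at 0 in all 3 chimeras, against 7.16 and 4.35 FPKM in zebrafish embryos. The embryo level would have given 18.3 fragments, and the call (limma adjusted p = 4.9e-04) held in all 16 alternatives. The limits given for cox8b hold here too, and over the alternatives the log2 difference ran from -5.83 to -1.09. cox4i2, the subunit 4 isoform that mammals express mainly in lung, had 0, 0 and 0.793 FPKM in chimeras, against 4.19 and 3.06 FPKM in zebrafish embryos. It rested on 1 fragment where 16.6 would have been seen at the embryo level. All 3 chimeras lay below both embryos (limma adjusted p = 0.0083), but the call was lost without either zebrafish library and with quantile normalization (adjusted p up to 0.19).

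cox5b2 was listed at 0 in all chimeras, against 3.50 and 1.81 FPKM in zebrafish embryos, and was called (limma adjusted p = 0.0023, and in 14 of 15 alternatives). With only 4.43 fragments expected it was near the limit of 3 that a count of 0 allows. cox6a2, the muscle form of subunit 6a in mammals, was listed at 0 in chimeras and stood at 0.578 and 0.820 FPKM in zebrafish embryos, too low to be tested.

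cox6b1 (ENSDARG00000045230, danRer10 chromosome 24, 39718206 to 39722738) was the best measured of these isoform genes, with 51.7 fragments in the chimeras. It had 25.2, 23.6 and 24.05 FPKM in chimeras, against 95.4 and 74.7 FPKM in zebrafish embryos. The chimeras lay within a narrow range, 3.51-fold lower on average (log2 difference -1.76 ± 0.13 SE, limma adjusted p = 4.1e-04), and the call held in all 16 alternatives. Its partner cox6b2 had 365, 346 and 387 FPKM in chimeras, against 533 and 437 FPKM in zebrafish embryos, and fell by 0.40 on the log2 scale (limma adjusted p = 0.045). The share of cox6b1 in the pair was 6.23% ± 0.33 in chimeras and 14.9% ± 0.40 in zebrafish embryos.

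**Figure D3:**
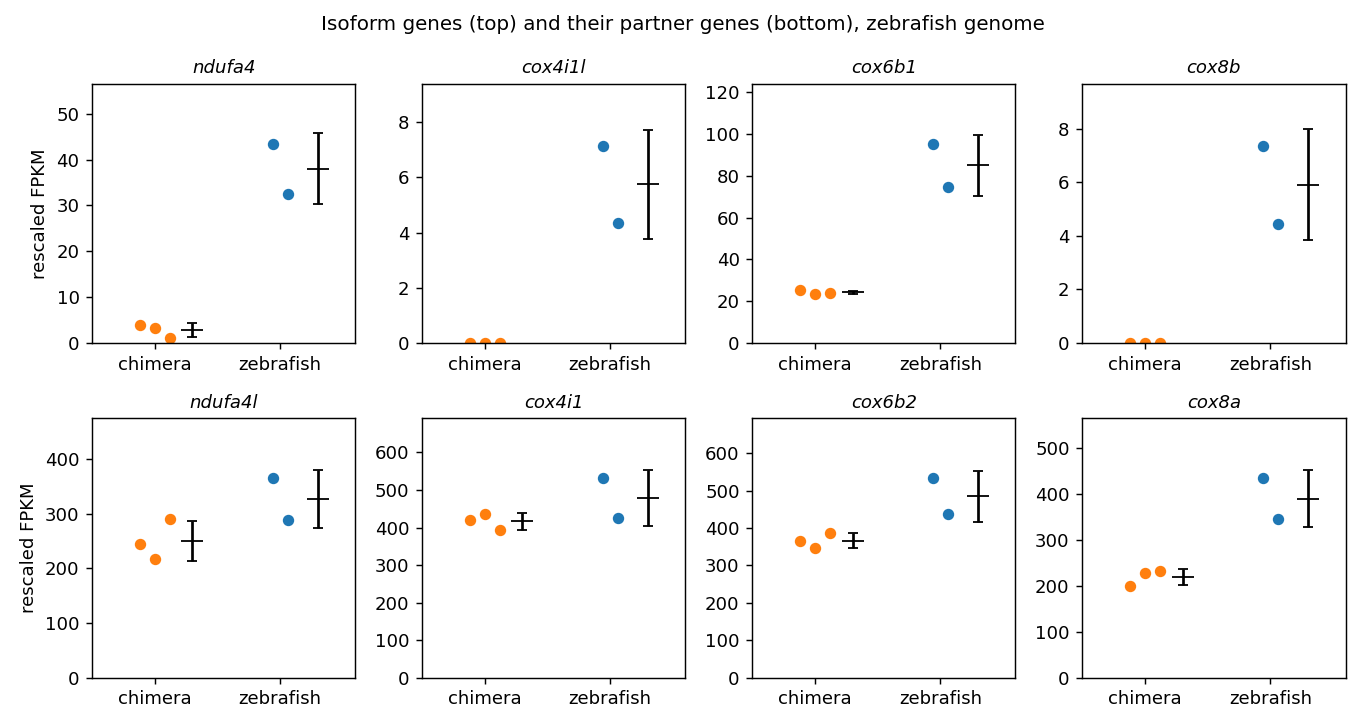
Rescaled FPKM on the zebrafish genome (vertical axes, each from 0) of ndufa4, cox4i1l, cox6b1 and cox8b (top) and of their more abundant partners ndufa4l, cox4i1, cox6b2 and cox8a (bottom). Points are libraries (3 chimeras left, 2 zebrafish embryos right), and crossbars with error bars are means and SD where no library is listed at 0. The top genes lie far lower in chimeras, as cox6b1 with 24.3 ± 0.81 against 85.1 ± 14.6, while the partners differ by less.

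The abundant partner genes differed by less. cox4i1 had 420, 436 and 392 FPKM in chimeras, against 531 and 425 FPKM in zebrafish embryos, with overlap and no call (log2 difference -0.19). cox8a had 200, 227 and 232 FPKM in chimeras, against 434 and 345 FPKM in zebrafish embryos. It fell by 0.82 on the log2 scale (limma adjusted p = 0.0075), the largest difference of any complex IV member above 100 FPKM in zebrafish embryos.

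Of the paired subunit 5a genes, cox5aa fell by 0.60 (limma adjusted p = 0.021), and cox5ab, at -0.56, was not called (0.068). Their shares of the pair overlapped, with 66.9% ± 3.70 cox5aa in chimeras and 67.6% ± 1.39 in zebrafish embryos. cox6a1, the partner of cox6a2, fell by 0.56 (limma adjusted p = 0.019). None of the 4 subunit 7a records was called: cox7a2a stood at -0.57, cox7a3 at -0.21, COX7A2 (1 of many) at -0.20 and cox7a1, the muscle form in mammals, at -0.11. cox7a1 had 3.58, 8.76 and 7.87 FPKM in chimeras, against 8.84 and 5.43 FPKM in zebrafish embryos, so the groups overlapped. Only about 0.43, 1.70 and 1.56 fragments lay behind the chimera values, too few to measure a difference.

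The most abundant complex IV gene of zebrafish embryos, 1 of 2 records named COX5B (1 of many) (ENSDARG00000015978), fell by 0.47 (limma adjusted p = 0.045). The other record of that name, ENSDARG00000011208, was the single member that rose. Before rescaling its mean was 1.24 FPKM in chimeras and 0.509 FPKM in zebrafish embryos. It thus met the minimum of 1 FPKM only through the chimeras, and its call is not independent of that filter. It had 1.55, 1.104 and 0.993 FPKM in chimeras, against 0.523 and 0.526 FPKM in zebrafish embryos, without overlap (log2 difference 0.53 ± 0.15 SE, limma adjusted p = 0.041). About 14.99 fragments lay behind the chimera values, and the call was lost in 5 of 15 alternatives.

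Complex V had 6 of 15 tested members that fell, where 32.5% of all tested genes did. When chimera 1 or chimera 3 was left out, 0 of the 15 fell, where 31.35% and 31.12% of all genes did. Without zebrafish library 1 the complex V median was -0.23, against -0.23 over all genes. atp5g3b, a gene of the membrane ring subunit and the most abundant member of zebrafish embryos, had 377, 405 and 400 FPKM in chimeras, against 672 and 514 FPKM in zebrafish embryos. The groups did not overlap (log2 difference -0.58 ± 0.13 SE, limma adjusted p = 0.023). The second ring gene atp5g1 stood at -0.56 ± 0.16 SE (limma adjusted p = 0.041), while the third, atp5g3a, stood at -0.30 and was not called.

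The largest called difference was that of atp5ib, a subunit e gene, at -0.63 ± 0.16 SE (limma adjusted p = 0.030). It had 135, 111 and 127 FPKM in chimeras, against 221 and 167 FPKM in zebrafish embryos, without overlap. Its paralog atp5ia stood at 0.01 with overlapping groups. The catalytic beta subunit gene atp5b fell by 0.53 (limma adjusted p = 0.019). The alpha subunit gene atp5a1 was not tested on the zebrafish genome, because medaka reads aligned to it: medaka embryos alone gave a mean of 299 FPKM there, an expected 10.24% of its level.

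Among the assembly factors and ATP synthase relatives 3 of 13 fell, with a median of -0.11, where 32.5% of all tested genes fell. atp5s, coupling factor B, had 0, 0.955 and 0 FPKM in chimeras, against 2.23 and 1.97 FPKM in zebrafish embryos. All chimeras lay below both embryos (limma adjusted p = 0.035), but under 1 fragment was seen where 8.68 were expected, and the call was lost in 6 of 15 alternatives. sdhaf4, which helps mature the complex II flavoprotein, had 5.57, 6.96 and 8.76 FPKM in chimeras, against 18.3 and 14.0 FPKM in zebrafish embryos (log2 difference -1.09 ± 0.23 SE, limma adjusted p = 0.017).

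sdhaf1, an assembly factor for the complex II iron-sulfur subunit, was called lower at -0.53 (limma adjusted p = 0.032), but its sign turned with quantile normalization, to 0.59. ndufaf1, the most abundant assembly factor, stood at 0.25 and was not called. None of the 7 tested ndufaf genes was called, and 4 of them lay above 0.

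On the medaka genome 79 of the 81 members were tested among 14640 genes. None rose and 3 fell, where 2.7% of all tested genes rose and 3.11% fell. The share of members that fell is near that of all genes, and the median member differed by 0.04, the median gene by -0.0013. Unadjusted limma p-values under 0.05 were found for 9 of the 79 members, where 3553 of the 14640 genes had them. In 4 members all chimeras lay below both medaka embryos and in 20 above, where 22.8% and 22.1% of all genes did.

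All 3 that fell are complex IV genes. cox6b1 had 85.9, 75.2 and 87.6 FPKM in chimeras, against 133 and 117 FPKM in medaka embryos. The groups were clear of each other (log2 difference -0.58 ± 0.09 SE, limma adjusted p = 0.021). cox8b had 134, 124 and 159 FPKM in chimeras, against 211 and 192 FPKM in medaka embryos, again without overlap (-0.54 ± 0.11 SE, adjusted p = 0.043).

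cox4i2 had 35.7, 37.8 and 37.8 FPKM in chimeras, against 56.6 and 45.8 FPKM in medaka embryos, without overlap (-0.45 ± 0.09 SE, limma adjusted p = 0.045). None of these calls held in all alternatives: 1 member or none was called lower when any 1 library was left out, and 1 without an expression filter. The share of cox6b1 among its 3 family records was 28.3% ± 1.20 in chimeras and 41.8% ± 6.75 in medaka embryos. The share of cox4i2 in its pair was 13.3% ± 0.35 in chimeras and 18.7% ± 1.81 in medaka embryos, while that of cox6a2 was 32.1% ± 3.33 in chimeras and 31.9% ± 0.01 in medaka embryos.

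The other complexes showed no call in the host. In complex II sdhc stood at -0.02, sdha at 0.04, sdhdb at 0.04 and SDHB (1 of many) at 0.05. sdhc had 69.2, 69.3 and 72.5 FPKM in chimeras, against 69.1 and 73.2 FPKM in medaka embryos, and the groups overlapped. The most abundant members of complexes I, III, IV and V in medaka embryos, ndufa1 at -0.12, uqcrq at -0.01, cox7b at 0.13 and atp5ia at 0.17, were not called.

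The third comparison asks whether donor and host cells differed in how far their chimera levels stood from their own species' embryos. It uses symbols with 1 tested record in each genome, 8777 genes and 68 members, and limma's test of the donor difference minus the host difference. Records were paired by symbol alone, and medaka has a second, more abundant UQCRFS1 record that took no part. In zebrafish embryos cox8b and cox5b2 made up 1.47% and 0.51% of the summed FPKM of their family records. In medaka they are the only members with a cox8 or cox5b symbol, so these pairs may not be alike. Of the members 29 had a lower donor difference and none a higher one, where 31.1% of all genes tested were lower and 13.1% higher. The median was -0.40 over members and -0.15 over all genes. Taking the chimera library as a block left 29.

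By complex the members with a lower donor difference were 8 of 32 in complex I, 1 of 3 in complex II, 6 of 7 in complex III, 8 of 10 in complex IV, 4 of 8 in complex V and 2 of 8 of the others. The result moved with the controls. Without zebrafish library 1 the median over members was -0.28, against -0.145 over all genes. Without zebrafish library 2 it was -0.58, against -0.16 over all genes. Without medaka library 1 or 2 it was -0.44 and -0.43, against -0.15 and -0.14 over all genes. The number of calls fell in each of these fits but the one without zebrafish library 2, where it rose. With quantile normalization 18 members were lower and 1 was higher. Then 1762 genes were lower and 3035 higher, against 2728 lower and 1147 higher with the median ratio.

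Of the 5 called members with the largest interaction, 4 were complex IV genes and the other was atp5s. cox8b differed by -2.22 ± 0.24 SE (donor -2.76, host -0.54, limma adjusted p = 6.5e-05) and cox5b2 by -2.03 ± 0.24 SE (donor -1.83, host 0.20, adjusted p = 1.2e-04). cox4i2 differed by -1.47 ± 0.35 SE (limma adjusted p = 0.0079) and cox6b1 by -1.17 ± 0.16 SE (adjusted p = 3.0e-04). atp5s differed by -1.35 ± 0.40 SE (donor -1.31, host 0.04, limma adjusted p = 0.021), on under 1 donor fragment, and its call was lost without chimera 1, chimera 3, medaka 1 or either zebrafish library (adjusted p from 0.057 to 0.097). cox6b1, cox8b and cox4i2 were thus the only member symbols called lower in donor and in host, each by more in the donor.

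In complex II sdhc differed by -0.85 ± 0.14 SE (limma adjusted p = 8.5e-04). In complex I the largest were ndufa5 at -0.91, ndufb3 at -0.79 and ndufv2 at -0.75, in complex III uqcrfs1 at -0.62, and in complex V atp5g3b at -0.63. The interaction was called in every one of 17 alternatives for 13 members, which include sdhc, uqcrfs1, cox6b1, cox8b, ndufa5, ndufb3 and ndufv2.

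**Figure D4:**
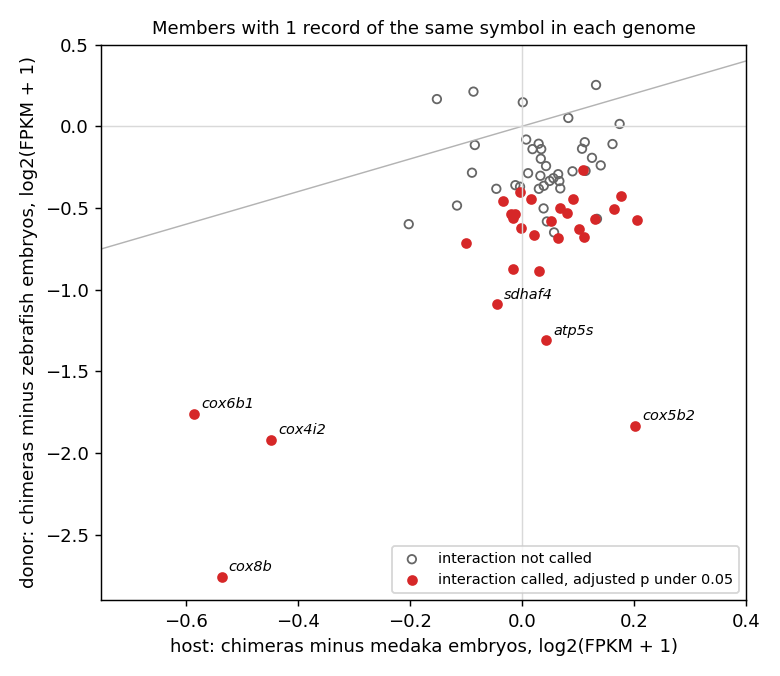
Donor difference (vertical axis, chimeras minus zebrafish embryos) against host difference (horizontal axis, chimeras minus medaka embryos), both in log2(FPKM + 1), for the 68 members with 1 tested record per genome. Red points have a called interaction, open points do not, and the grey diagonal marks equal differences. Most points lie near 0 on the horizontal axis, and cox6b1, cox8b and cox4i2 lie to the left and low. Both differences use the same chimera libraries, and the axes have unequal scales.

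The 13 subunits encoded by mitochondrial DNA, which the rule leaves out, were set beside the nuclear ones. On the zebrafish genome 10 of the 13 fell and none rose, with a median of -0.78. Of all tested genes 32.5% fell, with a median of -0.22. mt-co3, a core subunit of complex IV, had 2682, 2113 and 2644 FPKM in chimeras, against 5678 and 4706 FPKM in zebrafish embryos (log2 difference -1.07 ± 0.15 SE, limma adjusted p = 0.0044). mt-cyb, the cytochrome b of complex III, had 1043, 775 and 1035 FPKM in chimeras, against 2089 and 1799 FPKM in zebrafish embryos (-1.04 ± 0.17 SE, adjusted p = 0.0071). Without zebrafish library 1 or 2 the median was -0.68 and -0.84, against -0.23 and -0.22 over all genes. Most of the calls did not hold in those fits, where fewer of all genes fell too. With quantile normalization 4 of the 13 fell, where 19.97% of all genes did. The medians were then -0.45 over the 13 and 0.31 over all genes.

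In every one of the 13 all chimeras lay below both zebrafish embryos, where 43.2% of all tested genes did. In each of them chimera 2 was the lowest of the 3 chimeras. On the medaka genome none of 12 tested was called (median -0.18), and chimera 2 was again the lowest for all but ND6. The summed FPKM of mitochondrial DNA-encoded over nuclear subunits was 2.55, 1.65 and 2.40 in chimeras, against 2.72 and 2.90 in zebrafish embryos. On the medaka genome it was 1.28, 0.960 and 1.22 in chimeras, against 1.35 and 1.38 in medaka embryos.

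**Figure D5:**
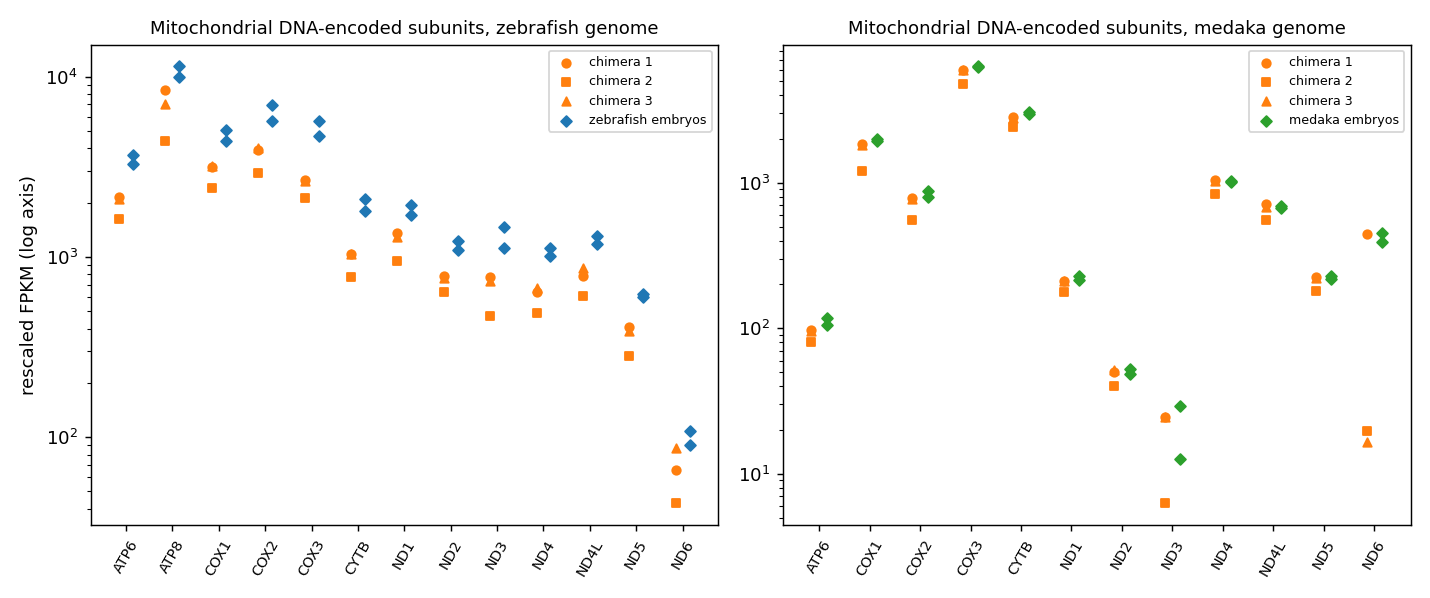
Rescaled FPKM (vertical axis, log scale) of the 13 zebrafish (left) and 12 tested medaka (right) subunits encoded by mitochondrial DNA (horizontal axis). Orange symbols are the 3 chimeras and diamonds the 2 unoperated embryos of the species. On the left all chimeras lie below the zebrafish embryos, and on the right ND6 is low in chimeras 2 and 3, at 19.6 and 16.6 against 444 in chimera 1. Medaka embryos had 394 and 454 for ND6, and the cause of this split was not tested.

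Lists of other mitochondrial genes differed in their counts. Beside them, 32.5% of all tested genes on the zebrafish genome fell and 10.8% rose, with a median of -0.22. On the zebrafish genome 12 of 20 tested genes listed by symbol for the citric acid cycle and pyruvate dehydrogenase fell, with a median of -0.57. These 20 include dld (-0.28, not called), which in zebrafish names the Notch ligand deltaD and not a dehydrogenase. The largest falls of the list were those of the succinate-CoA ligase genes suclg2 at -2.26 and suclg1 at -1.58. Without zebrafish library 1 the median of the list was -0.45, against -0.23 over all genes, and most of the calls did not hold. Of 6 carriers, cytochrome c and porin genes 4 fell, among them the ADP/ATP carrier slc25a4, the heart and muscle form in mammals, with 1.12 ± 0.17 FPKM in chimeras and 122 ± 40.3 FPKM in zebrafish embryos (SD, n = 3 and 2). The more abundant ADP/ATP carrier slc25a5 had 3679 ± 293 FPKM in chimeras, against 2162 ± 226 FPKM in zebrafish embryos. It was not tested, because 56.2% of the mean over both groups was expected from medaka reads. The porin gene vdac1 stood at 0.32 and was not called.

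Of 38 assembly factors outside the symbol rule 3 fell (lyrm2, atpaf1 and cox17), with a median of -0.06. Of 75 mitochondrial ribosomal proteins 1 rose and 1 fell, with a median of -0.03, and of 25 import genes 1 fell. Among 17 regulators and maintenance genes of mitochondrial DNA, nrf1, a transcription factor of nuclear respiratory genes, rose to 53.0 ± 2.15 FPKM in chimeras, against 30.6 ± 1.98 FPKM in zebrafish embryos. ppargc1a, a coactivator of mitochondrial biogenesis, fell to 0.645 ± 0.148 FPKM in chimeras, against 2.71 ± 0.69 FPKM in zebrafish embryos. tfam, the packaging factor of mitochondrial DNA, was not called. In the host, lyrm2 was the only gene of these lists that passed the test, and it rose.

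Tissue markers also differed between chimeras and zebrafish embryos, where 32.5% of all tested genes fell and 10.8% rose. The 8 tested skeletal muscle markers all fell in the zebrafish genome, to a sum of 214 to 239 FPKM in chimeras, against 10974 and 17197 FPKM in zebrafish embryos. Nearly all of the chimera sum was actc1b (mean 175 FPKM) and acta1b (51.0 FPKM). For these, 6.30% and 6.62% of the mean over chimeras and zebrafish embryos was expected from medaka reads. That mean is set mainly by the embryos, so medaka reads may make up much of the chimera sum. ckma, ckmb, tnni2a.4 and smyhc1 were listed at 0 in all chimeras. The 6 heart markers all fell, 5 of them were listed at 0 in all chimeras, and they summed to 0.514 to 0.768 FPKM in chimeras, against 105 and 115 FPKM in zebrafish embryos.

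Likewise all 3 epidermis, 4 erythroid and 5 ionocyte markers tested fell. Erythroid markers were listed at 0 in all chimeras, against sums of 1545 and 1699 FPKM in zebrafish embryos. The 8 retina markers all rose, to a sum of 756 to 799 FPKM in chimeras, against 94.8 and 104 FPKM in zebrafish embryos. The part of these tissue differences in the values of the respiratory chain genes was not tested. In the host the marker sums overlapped between the groups for muscle, heart and retina. They were 42.1 to 43.4 FPKM in chimeras against 40.2 and 42.6 FPKM in medaka embryos for muscle, and 210 to 225 FPKM in chimeras against 218 and 225 FPKM in medaka embryos for heart. Retina markers summed to 38.5 to 40.5 FPKM in chimeras, against 35.1 and 39.8 FPKM in medaka embryos. The host muscle sum rests on ckma, ckmb and tnnt3a, with ckmb the largest at 28.0 FPKM in medaka embryos. The medaka records of mylpfa, smyhc1 and atp2a1 stood below 1 FPKM in both groups and were not tested.

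The other host marker sums did not overlap. The tested epidermis markers summed to 380 to 388 FPKM in chimeras, against 490 and 447 FPKM in medaka embryos. This sum leaves out krt5, the most abundant marker of that list, which was not tested and was listed at 0 in chimera 1. krt5 had 6160 and 5891 FPKM in chimeras 2 and 3, against 6144 and 5805 FPKM in medaka embryos. Erythroid markers summed to 414 to 442 FPKM in chimeras, against 377 and 388 FPKM in medaka embryos, and the single ionocyte marker stood at 27.5 to 29.4 FPKM in chimeras, against 24.7 and 24.9 FPKM in medaka embryos. Among all tested genes on the medaka genome 2.7% rose and 3.11% fell. By limma 1 of 3 muscle markers rose (ckma, by 0.70 on the log2 scale), as did 1 of 5 heart (vmhc, by 0.49), 1 of 5 retina (atoh7, by 0.93) and 1 of 3 erythroid markers (slc4a1a, by 0.41), while 1 of 3 epidermis markers fell (krt4, log2 difference -0.34). The part of these host differences in the values of the respiratory chain genes was likewise not tested.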

How the data were processed

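Poly(A)-selected RNA of 7 whole-embryo libraries was analysed from 14 tables. The deposited values are FPKM, for which the submitters' processing notes name HISAT2 (no version), Cufflinks 2.2.1 and danRer10. The medaka build is not given in the sources used here. Records listed at several loci had their FPKM summed (119 zebrafish, 2 medaka IDs). A table of gene names held 102 of the zebrafish members' IDs.

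The fragments behind a value were estimated from the width of its upper confidence limit, taken as 2 counting errors. This is too low for genes with several isoforms and covers counting error only. Values were rescaled by median ratios and tested as log2(FPKM + 1) by limma 3.58.1 in R 4.3.3 (empirical Bayes, trend and robust), with Benjamini-Hochberg adjustment over all genes and a threshold of 0.05. Folds on this scale understate the change of low genes. Genes needed a mean of at least 1 FPKM in either group, a valid Cufflinks status and at most 10% of FPKM expected from the other species' reads, scaled from that species' libraries. Of zebrafish members 6 were too low and 1 cross-mapped, of medaka members 2 were too low.

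Named genes were the 3 largest called rises and falls per comparison and complex with groups apart, all complex II members, the most abundant member of each complex in unoperated embryos, and the isoform families of cox4, cox5a, cox6a, cox6b, cox7a, cox8 and ndufa4, with other genes named after their values were seen. Members and lists were chosen with earlier results of these data known. Scripts were tested on simulated data. Alternatives covered pseudocount, filters, scaling, array weights, all 3 groups in a fit, each library left out and the chimera library as a block. Python 3.11.15, pandas 2.3.3, numpy 2.4.6 and matplotlib 3.10.9 were used. One result for a single member is not reported here; the counts include every member.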

Additional observations from a re-analysis of the deposited data

Results flagged for a closer look

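By limma's interaction test 29 members had a donor difference (chimeras minus zebrafish embryos) below their host difference (chimeras minus medaka embryos), and those named in the results are given here. On the log2 scale the donor minus host difference was -2.22 for cox8b, -2.03 for cox5b2, -1.47 for cox4i2, -1.17 for cox6b1, -0.78 for cox7a2a and -0.54 for cox6a1 in complex IV. It was -0.91 for ndufa5, -0.79 for ndufb3 and -0.75 for ndufv2 in complex I, and -0.85 for sdhc in complex II. In complex III it was -0.62 for uqcrfs1, -0.53 for uqcrq and -0.52 for uqcrc1, and in complex V -0.63 for atp5g3b, -0.61 for atp5b and -0.54 for atp5l. It was -1.35 for atp5s and -1.04 for sdhaf4. cox8b and cox5b2 were listed at 0 in every chimera on the zebrafish genome, so these values depend on the pseudocount. Both are minor records of their families in zebrafish embryos but the only members of those families by symbol in medaka.

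A signal also appeared outside the comparisons. On the medaka genome a record named atp5a1 (1 of many) (ENSORLG00000003740) held a mean of 683 FPKM in zebrafish libraries, which hold no medaka cells. About 328 and 433 fragments lay behind it, of 63818 and 81765 in all on that genome, and it stood at 308 ± 8.99 FPKM in medaka embryos (SD, n = 2). Scaled to the chimeras this is 0.019% of its level there.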

How the results depend on the processing

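In the donor comparison, quantile normalization gave 5 members higher and 20 lower with a median of -0.15. The median of all genes turned to 0.31 and sdhaf1 turned to 0.59. No member was higher with a minimum of 5 FPKM or a pseudocount of 0.1 or 5. With each library left out in turn, 0 to 1 donor members were higher and 7 to 28 lower, with medians from -0.57 to -0.25. The fit without either zebrafish library assumes that the lone library varies like the chimeras.

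In the host comparison 1 member was lower without an expression filter. With each library left out 0 to 2 were higher and 0 to 1 lower, with medians from 0.03 to 0.05.

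For the interaction, quantile normalization gave 1 member higher and 18 lower with a median of -0.21. With each library left out in turn, the median over members ran from -0.58 to -0.28, against -0.16 to -0.13 over all genes. Replicate numbers do not pair the libraries, since they were given in accession order. The replicate block was the chimera library, which gives a donor and a host value, and it left 29 members lower with a median of -0.40. Summed in place of median FPKM, the ratio of chimeras over unoperated embryos was 0.621 for complex II and 0.755 for complex V in the donor, and 1.01, 1.02 and 1.03 for complexes I, II and IV in the host. Under the other alternatives the counts of members stayed within 1.5 times. Over all genes, with each library left out, 679 to 1980 rose and 3446 to 5653 fell in the donor, 41 to 618 rose and 77 to 636 fell in the host, and 722 to 1309 were higher for the interaction. A minimum of 5 FPKM gave 3237 genes that fell in the donor and 1562 lower for the interaction, and no expression filter 9585 in the donor. In the host, where 395 rose and 455 fell, 970 rose and 1004 fell with array weights, 845 and 869 with all 3 groups in a fit, and 253 fell without rescaling. At this depth some donor genes of a few FPKM rest on few fragments in all chimeras together, such as 17.0 for ndufaf6 and 20.2 for ndufaf7, against 69.2 for sdhaf2.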

Other observations

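Within unoperated embryos some symbols ranked far apart in zebrafish and medaka, while in both species cox4i1 stood above cox4i2 and cox6a1 above cox6a2. Tables of both genomes were normalized apart, so only order and share are described. Over 72 symbols with 1 record in each genome, the level in zebrafish embryos and that in medaka embryos had a Pearson correlation of 0.704 and a Spearman correlation of 0.682 on the log2 scale. Both are given as a description, without a test.

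Among these 72 symbols atp5g3b, a ring subunit gene of ATP synthase, ranked 1 in zebrafish embryos and 29 in medaka embryos. atp5ia, a subunit e gene, ranked 50 in zebrafish and 2 in medaka embryos. cox8b ranked 62 in zebrafish embryos and 15 in medaka embryos. cox5b2 ranked 67 in zebrafish and 38 in medaka embryos, cox4i2 65 and 51, and cox6a2 70 and 42. ndufa3, an accessory gene of complex I, ranked 58 in zebrafish and 5 in medaka embryos. FPKM are scaled to transcript length, so these ranks also depend on the length used for each record. In the first library of each species, ndufa3 rested on about 1192 fragments in zebrafish and 295 in medaka. Those libraries held 21866655 and 21491640 fragments in all. In medaka embryos cox4i2 made up 18.7% ± 1.81 of its pair and cox6a2 31.9% ± 0.01, and in zebrafish embryos they made up 0.740% ± 0.046 and 0.228% ± 0.088.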
